A study of Mus musculus with 14 samples.

Results

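The genes of the collagen chains, the laminin chains and the basement membrane were followed in differentiating mouse embryonic stem (ES) cells. Members were all genes whose symbol in the platform annotation names a collagen chain or a laminin chain, with Fn1, Nid1, Nid2, Hspg2, Sparc and Agrn added. This gave 60 of the 19938 genes measured, 44 of them collagen chains, 10 laminin chains and 6 others, each read from its brightest single-symbol probe set.

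A basement membrane is a thin sheet of matrix under epithelia and endothelia. Laminin trimers of an alpha, a beta and a gamma chain assemble at the cell surface, type IV collagen forms a second network, and nidogens and the proteoglycan perlecan (Hspg2) join them. In the early embryo such sheets underlie the epiblast and the extraembryonic endoderm, and the endothelium of new vessels lays down its own. Fibrillar collagens, the collagens on fibril surfaces and fibronectin (Fn1) belong to the matrix between cells.

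The cells had differentiated as embryoid bodies, aggregates in which mesoderm, blood and endothelial precursors arise. Doxycycline at 1 µg/ml, given from day 2 to day 3, switched on ER71 (encoded by Etv2), GATA2 and, per the titles and genotype labels, Scl (encoded by Tal1). Induced cells were collected after 6 h on day 2.25 (a single array), after 12 h on day 2.5 (3 arrays) and after 24 h on day 3 (3 arrays). The controls, labelled wild-type though from the same lines without doxycycline, were collected alongside in equal numbers. Replicates 1 and 2 came from the ES line iEGS and replicate 3 from the line iB1, about which the labels say no more. All groups had been kept on PMEF feeder cells and differentiated in serum with ascorbic acid, a cofactor of the enzymes that hydroxylate collagen. A group given doxycycline without the factors was not analysed here, and drug and factors cannot be told apart. Nothing states that arrays of a group came from separate cultures beyond the design text's mention of independent experiments. The p-values therefore set differences against the spread between these arrays.

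Values are log2 signals after RMA, in which 1 unit is a doubling and dim genes change less than their RNA did. Signals of different probe sets are not compared as levels. The induced factors were higher on every treated array than on its control, Gata2 by 4.45 ± 0.179 at 12 h and 3.95 ± 0.179 at 24 h (limma log2 change ± SE). The pluripotency and epiblast marker Pou5f1, which encodes Oct4, had a mean signal of 10.86 over the arrays. All 12 arrays of the replicated groups entered the fit. Replicate 3 of induced 24 h had the lowest mean correlation with the other arrays (0.966) and the narrowest spread of signal (SD 1.91). Of the members, 36 lay below the median signal of all genes (5.56).

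3 upstream sequences are shown because they belong to genes that rose after induction and for which RefSeq gave a start site (GRCm38.p6). Of the 60 members 44 had an entry, and of the 7 that passed a test of induction 5 had one. Col4a5 and Col4a6 are neighbours on chromosome X that are read away from each other, with start sites 1343 bases apart. The stretch before Col4a5 is chrX:141475169-141475369 on the plus strand, that before Col4a6 is chrX:141474096-141474326 on the minus strand, and that before Nid1 is chr13:13437352-13437601 on the plus strand, where the annotation also places the pseudogene Gm7426. Capitals mark matches on either strand to the motifs searched. GGAAG holds the core bound by ETS factors such as ER71. AGATAA is a form of the site bound by GATA factors. CANNTG is the E-box read by Scl and its partners. No match overlapped another.
Col4a5: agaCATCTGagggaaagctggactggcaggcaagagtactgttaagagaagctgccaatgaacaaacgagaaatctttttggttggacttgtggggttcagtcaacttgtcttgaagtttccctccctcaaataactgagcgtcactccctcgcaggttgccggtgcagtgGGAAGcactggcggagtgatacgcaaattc
Col4a6: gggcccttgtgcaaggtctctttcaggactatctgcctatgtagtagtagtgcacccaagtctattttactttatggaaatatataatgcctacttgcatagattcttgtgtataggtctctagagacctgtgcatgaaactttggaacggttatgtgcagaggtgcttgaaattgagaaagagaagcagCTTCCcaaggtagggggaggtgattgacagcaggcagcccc
Nid1: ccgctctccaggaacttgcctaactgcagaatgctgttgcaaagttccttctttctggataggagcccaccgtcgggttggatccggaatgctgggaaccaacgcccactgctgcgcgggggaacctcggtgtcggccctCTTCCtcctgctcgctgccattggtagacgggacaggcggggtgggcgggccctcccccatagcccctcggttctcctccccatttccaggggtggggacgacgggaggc

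In the full 250 bases before the start site, Col4a5 held 2 matches to GGAAG (1 of them in the 49 bases left out above, which lie inside the gene's annotated span) and 1 to CANNTG, and Col4a6 and Nid1 held 1 match each to GGAAG. The same window of Col4a1 and Col4a2 held 0 matches to any of the motifs. These genes lie head to head on chromosome 8 with start sites only 21 bases apart, so their windows run into each other's transcripts and are not shown. GGAAG was present in 64.1% of all 32851 promoter windows and in 71.4% of the 49 windows of members, CANNTG in 66.2% and 55.1%, and AGATAA in 9.99% and 4.08%. The matches describe the letters only.

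After induction a few basement membrane genes moved and most matrix genes did not pass the test. Col14a1 had the largest rise among the members at 12 h, 3.38-fold, and read 2.37-fold higher on the single induced array of 6 h. Nid1 rose 2.39-fold at 12 h, and the type IV collagen genes Col4a1, Col4a2, Col4a5 and Col4a6 were 1.45-fold to 1.92-fold higher at 24 h. Nid2, the other nidogen gene, fell 1.96-fold at 24 h. At 12 h, 3 of 60 members rose and 0 fell (5% called), and 6 had an unadjusted p under 0.05. With a block for each pair of arrays of a day, 4 rose and 1 fell, the added genes being Col4a5 (adjusted p = 0.0484) and Nid2 (adjusted p = 0.0148). Over all 19938 genes limma called 1.39% at that time (adjusted p under 0.05), 0.813% higher and 0.577% lower. At 24 h, 6 rose and 1 fell (11.7% called). The background was 5.46% of all genes, 2.03% higher and 3.43% lower. The median log2 change of the members was 0.06 at 12 h and 0.15 at 24 h, against -0.01 and -0.00404 for all genes. Counts at an unadjusted p under 0.05, here and below, were not set against the share of all genes and are not read as results.

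**Figure D1:**
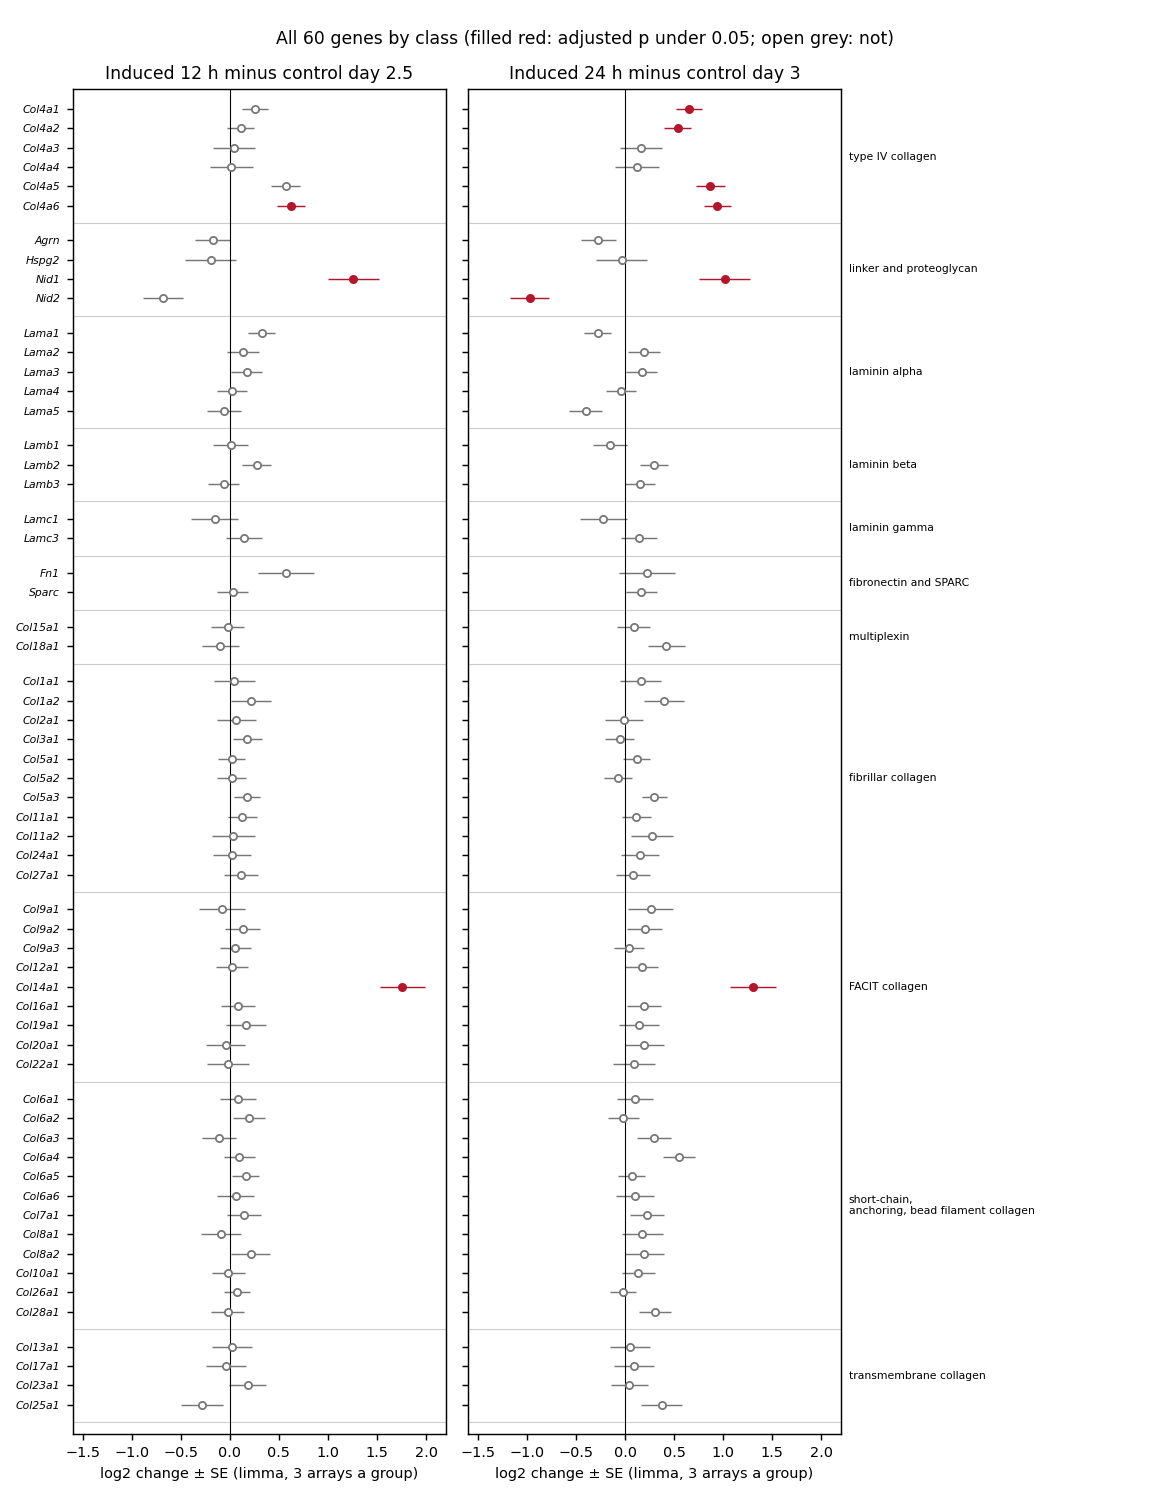
Log2 change with its standard error for all 60 genes, by class, at 12 h (left) and 24 h (right), from 3 arrays a group; filled red points passed limma at an adjusted p under 0.05. The 3 genes called at 12 h all lie right of 0, and of the 7 called at 24 h only Nid2 lies left of it; most open points sit near 0.

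Type IV collagen is the network collagen of basement membranes. Of its 6 chain genes 1 rose at 12 h and 4 rose at 24 h, and all 6 log2 changes were above 0 at 24 h (median 0.59). Changes above 0 were also found then in 47 of the 60 members, so the sign is not particular to this class. The share of all genes above 0 was not counted. Col4a6 stood at 4.58, 4.68 and 4.44 in control day 2.5 and at 5.43, 5.14 and 5.00 after 12 h of induction (replicates 1, 2 and 3). In control day 3 it stood at 4.63, 4.55 and 4.52, and at 5.59, 5.41 and 5.52 after 24 h. The induced arrays lay above the control arrays on both days without overlap. After 12 h it had risen by 0.62 ± 0.14 (limma adjusted p = 0.0409). After 24 h the rise was 0.94 ± 0.14 (adjusted p = 0.000629). At 24 h the call held under all 18 alternatives that gave it a value. At 12 h it was lost under 12 of 18, among them leaving out any one array of either group (log2 change 0.50 to 0.72, adjusted p = 0.0518 to 0.236) or any one replicate number (0.51 to 0.70, adjusted p = 0.303 to 0.47). The fit without dim genes gave Col4a6 no value, because its mean signal (percentile 39.3) lay under the filter at percentile 40.

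Col4a5, whose product joins that of Col4a6 in 1 kind of trimer, had changes of a similar size. It stood at 4.80, 5.03 and 5.00 in control day 2.5 and at 5.50, 5.61 and 5.42 after 12 h. It stood at 5.01, 4.82 and 5.30 in control day 3 and at 5.99, 5.78 and 5.96 after 24 h. Again no induced array overlapped the controls of its day. The change was 0.57 ± 0.147 at 12 h, short of the threshold (limma adjusted p = 0.0968, 0.0598 with the replicate number as a block and 0.0484 with a block for each pair of arrays of a day). At 24 h it rose by 0.87 ± 0.147 (adjusted p = 0.00196), a call that was lost only without replicate 2 (0.82, adjusted p = 0.08). At 6 h, on 1 array each, Col4a5 read 5.16 against 4.78 and Col4a6 4.64 against 4.53.

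Col4a1 and Col4a2 encode the chains of the most widespread type IV network. Col4a1 stood at 5.51, 5.69 and 5.32 in control day 2.5 and at 5.76, 5.74 and 5.78 after 12 h, a change of 0.25 ± 0.134 that did not pass (limma adjusted p = 0.865). On day 3 it stood at 5.78, 5.59 and 5.63 in the controls and at 6.40, 6.20 and 6.36 after 24 h, a rise of 0.65 ± 0.134 (adjusted p = 0.0081). Col4a2 read 5.29, 5.47 and 5.32 in control day 2.5 and 5.58, 5.34 and 5.50 after 12 h (change 0.11 ± 0.137, adjusted p = 0.999). In this gene the groups of day 2.5 overlapped. It read 5.62, 5.54 and 5.63 in control day 3 and 6.05, 5.98 and 6.36 after 24 h, a rise of 0.53 ± 0.137 (adjusted p = 0.0338). On day 3 no array of either gene overlapped between the groups.

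The rise of Col4a1 at 24 h lost its call without replicate 2 (0.67, limma adjusted p = 0.137) and without replicate 3 (0.62, adjusted p = 0.15). It was also lost with only the groups compared in the fit (adjusted p = 0.0541) and with array weights (adjusted p = 0.0811). The estimate of the array weights, used here and below, did not converge. The rise of Col4a2 was lost without replicate 1, 2 or 3 in turn (0.44 to 0.58, adjusted p = 0.0695 to 0.399), without any single array of control day 3 (0.51 to 0.55, adjusted p = 0.0861 to 0.13) and without replicate 3 of induced 24 h (0.42, adjusted p = 0.104). With only the groups compared its adjusted p was 0.151, and with array weights 0.113. Between the induced groups themselves Col4a2 was the only member called, rising by 0.66 ± 0.137 from 12 h to 24 h (adjusted p = 0.0246). That call was lost without any single array of induced 12 h (0.59 to 0.71, adjusted p = 0.0592 to 0.135) and without replicate 3 of induced 24 h (0.54, adjusted p = 0.0685). It was also lost without replicate number 2 (0.67, adjusted p = 0.321) or 3 (0.56, adjusted p = 0.437). Over all genes 1.81% were called in that comparison, 0.557% higher. All 3 arrays of induced 24 h lay above all 3 of induced 12 h for 9 members (5.85% of all genes) and below for 2 (9.57% of all genes). Col4a1 rose by 0.56 ± 0.134 there (adjusted p = 0.0503, just short of the threshold).

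Col4a3 and Col4a4, the remaining head-to-head pair, encode chains known from kidney and inner ear membranes. Neither passed a test. Their changes were 0.04 ± 0.216 and 0.02 ± 0.223 at 12 h and 0.16 ± 0.216 and 0.12 ± 0.223 at 24 h, with overlapping groups on both days. Whether their response differed from that of the other chains was not tested.

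**Figure D2:**
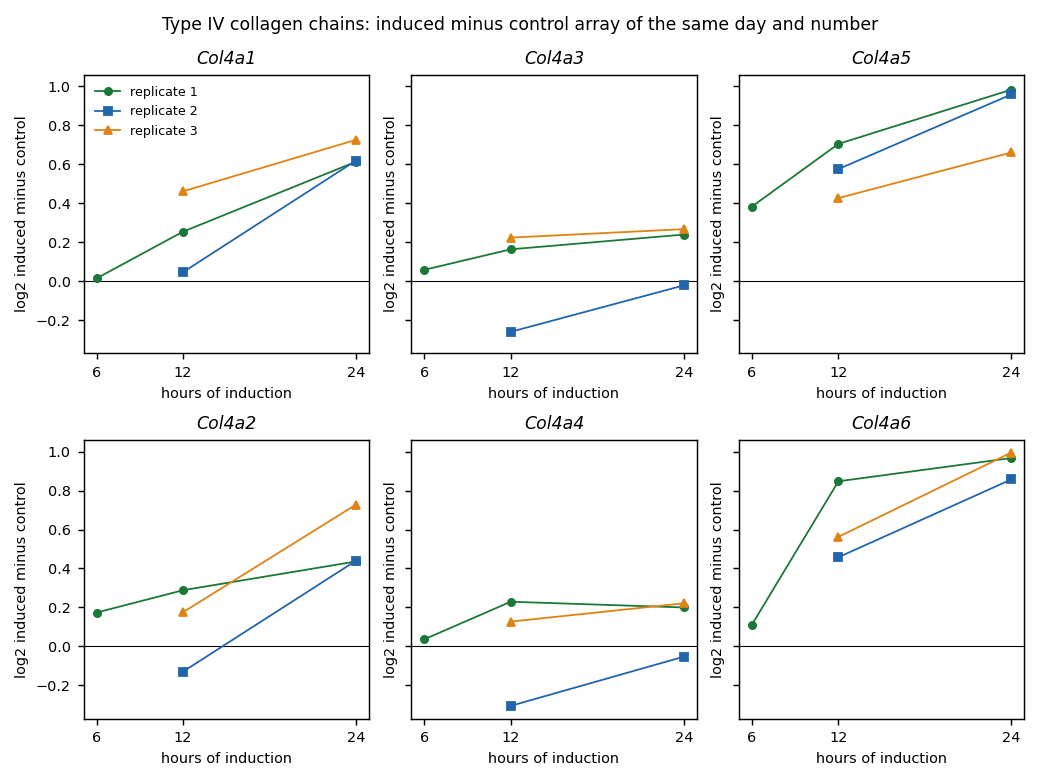
Induced minus control, in log2, for arrays that share a day and a replicate number (vertical axis) against hours of induction for the 6 type IV collagen genes, 1 line per replicate; only replicate 1 has a 6 h point. At 24 h every replicate lies above 0 for Col4a1, Col4a2, Col4a5 and Col4a6 (lowest 0.44, highest 1.00), while replicate 2 of Col4a3 and Col4a4 lies just below 0.

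The nidogens are rod-shaped linkers between laminin and type IV collagen, and their genes moved in opposite directions. Nid1 stood at 5.84, 5.41 and 5.55 in control day 2.5 and at 7.29, 6.68 and 6.60 after 12 h. It stood at 6.20, 5.53 and 5.90 in control day 3 and at 7.42, 6.88 and 6.36 after 24 h. All induced arrays lay above the controls of their day. At 6 h the single arrays read 6.62 against 6.15. The gene rose by 1.26 ± 0.261 in the first 12 h (limma adjusted p = 0.0243). The rise was 1.01 ± 0.261 after 24 h (adjusted p = 0.0342).

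Replicate 1 read highest in every group for Nid1, and the replicate block lowered its adjusted p to 0.000314 at 12 h and 0.000837 at 24 h. That block also ties the numbers across days. With the block for pairs of a day the limma adjusted p was 0.00175 at 12 h, and the gene was also called at 24 h. The call at 12 h was lost without replicate 1 of induced 12 h (1.04, limma adjusted p = 0.143), without replicate 2 of either group (1.16 and 1.35, adjusted p = 0.112 and 0.0565) and without replicate 3 of control day 2.5 (1.23, adjusted p = 0.113), as well as without number 2 (1.25, adjusted p = 0.462) or 3 (1.36, adjusted p = 0.146) in all groups. At 24 h it was lost without replicate 1 of induced 24 h (0.75, adjusted p = 0.0701), without replicate 2 of either group (0.84 and 1.02, adjusted p = 0.168 and 0.0972) and without replicate 3 of control day 3 (1.03, adjusted p = 0.0988), as well as without number 2 (0.85, adjusted p = 0.454) or 3 (1.29, adjusted p = 0.0689). It was lost too with only the groups compared (adjusted p = 0.0949) and with array weights (adjusted p = 0.218). The gain in pair 3, the line iB1, was 0.46 at 24 h against 1.23 and 1.35 in the pairs of iEGS. The only iB1 array of induced 24 h was also the array of narrowest signal spread (SD 1.91). Line and array cannot be told apart here, and the difference between the lines was not tested.

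Nid2 stood at 9.41, 9.06 and 9.04 in control day 2.5 and at 8.82, 8.40 and 8.25 after 12 h. In control day 3 it stood at 9.35, 8.87 and 8.66, and at 8.19, 7.97 and 7.80 after 24 h. Every induced array lay below every control array of its day. The change at 12 h was -0.68 ± 0.201 (limma adjusted p = 0.181), which passed with the replicate block (adjusted p = 0.00669) and with the block for pairs of a day (0.0148). At 24 h Nid2 fell by 0.97 ± 0.201 (adjusted p = 0.0087). That call was lost without replicate 1 of control day 3 (-0.78, adjusted p = 0.0515), without replicate 2 (-1.01, adjusted p = 0.194) without replicate 3 (-1.03, adjusted p = 0.0596) and with array weights (-0.95, adjusted p = 0.185). The 6 h arrays read 9.15 against 9.41.

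The proteoglycans of the group did not pass. Perlecan (Hspg2) changed by -0.20 ± 0.262 at 12 h and -0.04 ± 0.262 at 24 h, and agrin (Agrn), which binds laminin, by -0.17 ± 0.176 and -0.27 ± 0.176. In both genes the groups overlapped on either day.

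Collagen XIV, the product of Col14a1, sits on the surface of collagen fibrils. It belongs to the fibril-associated (FACIT) collagens, of which 9 genes were measured, and only Col14a1 passed a test among them. It stood at 5.00 in the control of day 2.25 and at 6.24 after 6 h, the only member at least 1.5-fold or 2-fold apart at that time, when 0.356% of all genes differed by 2-fold or more (0.221% higher). With 1 array a group this has no replicate check. Col14a1 read 4.90, 5.43 and 5.25 in control day 2.5 and 7.13, 6.81 and 6.91 after 12 h. It read 5.31, 5.17 and 5.55 in control day 3 and 7.25, 6.45 and 6.23 after 24 h. The lowest induced array thus lay 0.68 above the control of its own number.

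Col14a1 had risen by 1.76 ± 0.23 after 12 h (limma adjusted p = 0.000632). After 24 h it was 1.30 ± 0.23 above the control (adjusted p = 0.00269). At 12 h the call held under all 19 alternatives, and at 24 h under 18 of 19, the exception being the fit without replicate 2 (1.31, adjusted p = 0.0925). The gain at 24 h was 1.95, 1.29 and 0.68 in pairs 1, 2 and 3. The other FACIT genes changed little in the same fits. At 24 h Col9a3, the one with the highest mean, changed by 0.04 ± 0.155, and Col12a1 by 0.17 ± 0.168.

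**Figure D3:**
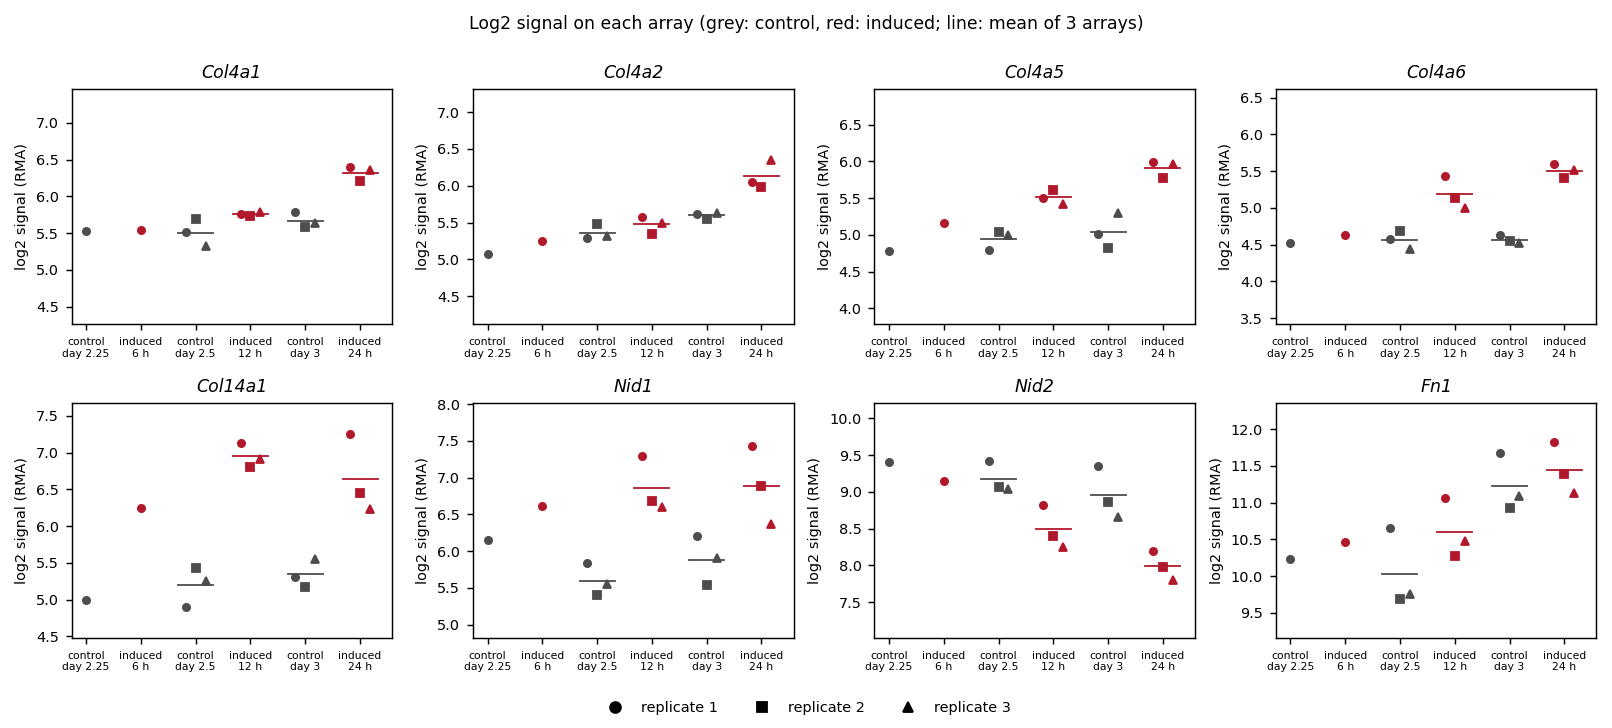
Log2 signal on each of the 14 arrays for the 7 genes called at 12 h or 24 h and for Fn1, by group; grey is control, red is induced, the marker shape is the replicate number and the line is the mean of 3 arrays. In the 7 called genes the induced 24 h arrays do not overlap the day 3 controls, while those of Fn1 do.

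Laminins are the first matrix of the embryo, and the trimer with the products of Lama1, Lamb1 and Lamc1 is its common early form. None of the 10 laminin chain genes passed limma at 12 h or 24 h. At an unadjusted p under 0.05 there was 1 alpha chain gene at each time, Lama1 at 12 h and Lama5 at 24 h. Lama1 stood at 5.12, 5.35 and 5.18 in control day 2.5 and at 5.62, 5.55 and 5.45 after 12 h (change 0.32 ± 0.138, adjusted p = 0.596, 0.0317 with array weights). It stood at 6.01, 5.61 and 5.77 in control day 3 and at 5.60, 5.45 and 5.51 after 24 h (change -0.28 ± 0.138, adjusted p = 0.341). The induced groups differed by -0.02, while the control groups differed by 0.58 ± 0.138 (adjusted p = 0.0792). The latter difference passed under 4 of 18 alternatives (replicate block, quantile normalization again, without dim genes and array weights).

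Lama5, which encodes the alpha chain of most mature epithelial and vascular laminins, read 7.74, 7.47 and 7.23 in control day 3 and 7.22, 7.17 and 6.84 after 24 h, without overlap (change -0.40 ± 0.171, limma adjusted p = 0.252). From induced 12 h to induced 24 h it changed by -0.65 ± 0.171 (adjusted p = 0.0803). The partner chains Lamb1 and Lamc1 changed by 0.01 ± 0.174 and -0.16 ± 0.239 at 12 h and by -0.15 ± 0.174 and -0.22 ± 0.239 at 24 h. Replicate 3 of induced 24 h read lowest for both (7.74 and 7.86).

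**Figure D4:**
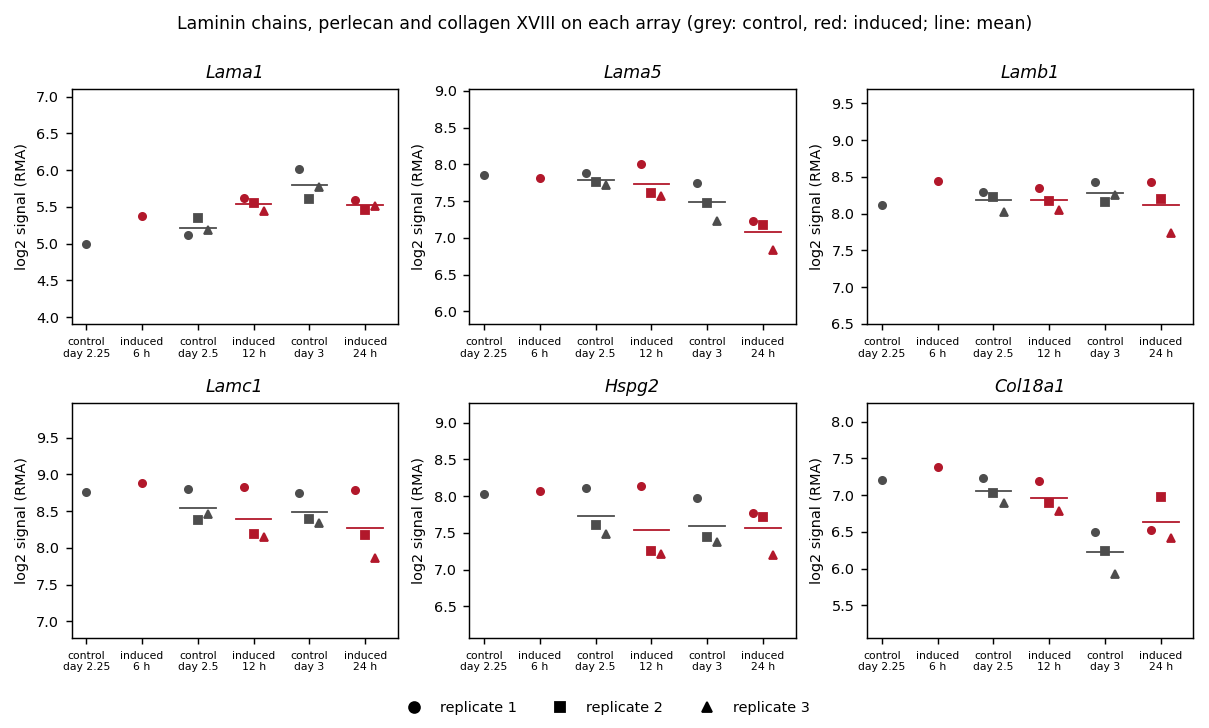
Log2 signal on each array for the laminin chain genes Lama1, Lama5, Lamb1 and Lamc1, for perlecan (Hspg2) and for Col18a1, with the same symbols for control, induced and replicate. No gene shown was called at 12 h or 24 h; the induced 24 h arrays of Lama5 and Lama1 lie below the day 3 controls, and those of Col18a1 overlap them.

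Fibronectin is a ligand of integrins in the matrix of gastrulating mesoderm. Fn1 read 10.66, 9.69 and 9.75 in control day 2.5 and 11.06, 10.28 and 10.48 after 12 h. It read 11.67, 10.92 and 11.09 in control day 3 and 11.83, 11.40 and 11.13 after 24 h. The induced arrays overlapped the controls on both days, and the changes were 0.57 ± 0.288 (limma adjusted p = 0.82, 0.0439 with the replicate block, 0.058 with the block for pairs of a day and 0.0295 with array weights) and 0.23 ± 0.288 (adjusted p = 0.753). Between the control days it changed by 1.19 ± 0.288 (adjusted p = 0.0888), and it passed without replicate 1 of control day 2.5 (1.51, adjusted p = 0.0216), without replicate 1 of all groups (1.29, adjusted p = 0.00155) and with array weights (1.32, adjusted p = 0.000919). Sparc, which encodes a collagen-binding protein of basement membranes, changed by 0.03 ± 0.16 and 0.17 ± 0.16.

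Between control day 2.5 and control day 3, 0 of 60 members passed limma, against 0.757% of all genes (0.562% higher and 0.196% lower). At an unadjusted p under 0.05 there were 3, Fn1, Lama1 and Col18a1, a count not set against all genes. The day 3 arrays lay above all day 2.5 arrays for 3 members (6.12% of all genes) and below for 1 (7.49% of all genes). Col18a1, whose product carries the endostatin fragment, read 7.24, 7.03 and 6.90 in control day 2.5 and 6.50, 6.24 and 5.93 in control day 3 (change -0.83 ± 0.187, adjusted p = 0.0616). This change passed under 5 of 18 alternatives (replicate block, line as covariate, quantile normalization again, without dim genes and array weights). After 24 h of induction Col18a1 read 6.53, 6.97 and 6.42, with a change of 0.42 ± 0.187 against the control of the day (adjusted p = 0.282).

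The change of the induction effect from 12 h to 24 h did not pass for any member by limma. Of all genes 0.426% passed, 0.1% higher and 0.326% lower. At an unadjusted p under 0.05 there were 3 members (Lama1, Col25a1 and Col4a2), a count not set against all genes. For Col4a1 and Col4a2 the effect grew by 0.40 ± 0.189 and 0.42 ± 0.194 (adjusted p = 0.89 and 0.858), and for Nid1 and Col14a1 it changed by -0.24 ± 0.368 and -0.45 ± 0.325 (adjusted p = 0.999 for both). A difference in timing between these genes was not tested.

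No interstitial collagen gene other than Col14a1 was called. None of the 11 fibrillar collagen genes was called by limma, with log2 changes from 0.02 to 0.21 at 12 h and from -0.07 to 0.39 at 24 h, and 0 and 1 of them had an unadjusted p under 0.05. Col2a1, the one with the highest mean, changed by 0.06 ± 0.198 and -0.01 ± 0.198, and Col1a2, of the main collagen of connective tissue, by 0.21 ± 0.202 and 0.39 ± 0.202. Of the 12 short-chain, anchoring and bead filament collagen genes 0 passed, and 0 and 1 had an unadjusted p under 0.05. The latter was Col6a4, with 4.35, 4.72 and 4.26 in control day 3 and 4.81, 4.90 and 5.27 after 24 h (change 0.55 ± 0.162, adjusted p = 0.0683, 0.031 with the replicate block and 0.0526 with the block for pairs of a day). Col26a1, the one of highest mean in that class, changed by -0.02 at 24 h. The 4 transmembrane collagen genes changed by 0.04 to 0.37 at 24 h, Col13a1 by 0.05, and 0 had an unadjusted p under 0.05 at either time.

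Dim genes had small positive changes at 24 h, and the members had them both below and above the median signal. The 9969 genes below the median signal had a median change of 0.11 and those above it -0.12. The members below the median had 0.15 and those above it 0.13. Without replicate 3 of induced 24 h these values were 0.02 and -0.02 for all genes and 0.08 and 0.10 for the members. All 3 induced arrays lay above all 3 controls for 11 of 60 members at 24 h (18.3%, against 7.6% of all genes) and for 7 at 12 h (11.7%, against 6.78%). All 3 lay below for 3 members at 24 h (5%, against 10.9%) and for 1 at 12 h (1.67%, against 7.72%). The part of the narrower signal range of that array in the small positive changes was not tested beyond these values.

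At 24 h, 7.41% of collagen processing genes, 14.8% of matrix receptors, 9.52% of remodelling genes and 19.4% of other matrix glycoproteins and proteoglycans were called, against 5.46% of all genes. At 12 h the shares were 0%, 3.7%, 0% and 5.56%, against 1.39%. Of 27 collagen processing genes 0 passed limma at 12 h (2 at an unadjusted p under 0.05), with log2 changes from -0.44 to 0.48, and 2 fell at 24 h. They were P3h2, which hydroxylates prolines of type IV collagen (-1.85 ± 0.245, adjusted p = 0.000227), and the enhancer of procollagen cleavage Pcolce (-0.64 ± 0.164). P3h2 had risen by 1.26 between the control days (adjusted p = 0.0267), the 1 gene of this list to do so. Of 27 matrix receptor genes 1 fell at 12 h, and 3 fell and 1 rose at 24 h. The integrin gene Itga8 was lower at both times (-1.19 and -2.59). The control groups differed by 1.32, the 1 rise of this list between the control days, while the induced groups differed by -0.07. Itgb8 (-1.05) and Itgb5 (-0.95) fell and the syndecan gene Sdc3 rose (1.29) at 24 h. The medians of these lists lay between -0.03 and 0.02 at 12 h and 24 h.

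Of 21 matrix remodelling genes 0 passed limma at 12 h and between the control days (5 and 6 at an unadjusted p under 0.05), and 2 fell at 24 h, the protease genes Adamts9 (-2.48 ± 0.358, adjusted p = 0.000481) and Adamts15 (-1.44 ± 0.184). The gelatinase gene Mmp9 was 1.25 higher at 6 h but did not pass later (0.93 and 0.44, adjusted p = 0.17 and 0.468). Of 36 other matrix glycoprotein and proteoglycan genes 1 rose and 1 fell at 12 h, and 2 rose and 5 fell at 24 h. Egfl7, which encodes a matrix protein secreted by endothelium, rose by 1.19 ± 0.144 and 2.63 ± 0.144. Efemp1 fell by 1.32 and 1.74, Vcan (versican) by 1.56 and Ntn1 (netrin) by 1.21 at 24 h. Between the control days 1 of these genes rose, Egflam (1.09). The median changes at 24 h were -0.19 for the remodelling list and -0.06 for the glycoproteins, against -0.00404 for all genes.

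Markers of several cell types moved in the same comparisons, and in bulk RNA a change in the number of cells of a type cannot be told apart from a change in RNA per cell. The 12 endothelial markers had a mean log2 signal of 4.97 to 5.22 in control day 2.5, 5.91 to 6.31 after 12 h, 5.25 to 5.36 in control day 3 and 6.75 to 7.49 after 24 h, with 6 and 8 of them called higher and 0 lower (Flt1, Fli1 and Kdr had the highest means). The 7 markers of primitive streak and nascent mesoderm, with Eomes, Mixl1 and Lhx1 the highest, had a mean of 8.53 to 8.79 in control day 3 and 5.47 to 5.79 after 24 h, with 7 of 7 called lower then, 3 of 7 at 12 h and 5 of 7 higher between the control days. The 8 pluripotent and epiblast markers read 8.87 to 9.13 in control day 3 and 7.21 to 7.69 after 24 h, with 6 of 8 called lower (2 of 8 at 12 h), among them Nanog, Dnmt3b and Pou5f1.

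Endoderm and fibroblasts also make these matrix proteins. The 11 primitive and visceral endoderm markers read 5.91 to 5.97 in control day 3 and 5.35 to 5.69 after 24 h. At 24 h 2 were called lower (Foxa2 and Gata4) and 0 higher, and at 12 h 1 lower and 0 higher. Between the control days 3 of the 11 were called higher and 0 lower, against 0.562% and 0.196% of all genes. Gata6 changed by -0.49 at 24 h without passing, and Dab2 had the highest mean. Of the 8 parietal endoderm markers 2 rose (Sox7 and Cited1) and 2 fell (Snai1 and Pth1r) at 24 h and 1 rose at 12 h, with means of 5.60 to 5.61 in control day 3 and 5.56 to 5.90 after 24 h. Of the 12 fibroblast and feeder markers 0 passed limma at 12 h (2 at an unadjusted p under 0.05), and Thy1 and Cd34 rose and Tagln fell at 24 h, with means of 5.10 to 5.35 and 5.14 to 5.56, and Acta2 among the highest. Between 7 and 8 of these 12 fibroblast markers read below the median gene in the day 3 groups. Cd34 is not exclusive to fibroblasts, nor Sox7 to parietal endoderm, so their rises do not identify the cells. The part of any of these cell types in the rises of Col4a1, Col4a2, Col4a5, Col4a6, Nid1 and Col14a1 or in the fall of Nid2 was not tested.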

How the data were processed

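RNA of 14 samples was profiled on Affymetrix arrays. The authors deposited log2 signals of 35556 probe sets, for which the submitters' processing notes name RMA and Affymetrix Expression Console. No source used here gives versions or the set of arrays that RMA processed jointly. RMA is meant to equalise array distributions, and it compresses dim signals. Over the genes used here the arrays still differed in spread, with an SD from 1.91 (replicate 3 of induced 24 h) to 2.23 (induced 6 h). Array signals carry no counts, so the number of arrays limits the precision. Of the probe sets, 21789 had 1 symbol, 1621 several and 12146 none. The brightest stood for each of 19938 genes. The members had 62 probe sets, with 2 each for Col6a5 and Col6a6, of which none passed a test.

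The 4 groups of 3 arrays were fitted together in limma 3.58.1 (R 4.3.3; group means, 8 residual and 6.05 prior degrees of freedom), with p-values adjusted over all genes (Benjamini-Hochberg, threshold 0.05). The fit was tested on simulated data with independent errors, without pairs or lines, so the test does not cover arrays that deviate together. Its pass conditions covered only changes larger than any seen in the members. Arrays of 1 number deviated together within a day (correlations 0.573, 0.344 and 0.262 on day 2.5 and 0.517, 0.157 and 0.261 on day 3). The numbers were therefore taken as pairs within a day for the pair differences and for 1 alternative fit. The main fit used group means and left the pairs out. On day 3 this was less clear, since replicate 2 of the control correlated more with replicate 3 of induced 24 h (0.375) than with its own number. Across days the numbers were not taken as pairs, as 2 of 6 correlations were below 0.1. A replicate block was therefore an alternative, beside the line, the groups fitted, normalization, filters, probe set means, variance models and left-out arrays.

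Members, lists and tests were chosen with earlier results of these data known. Named with values are all called members, members at least 1.5-fold apart at 6 h, the brightest of each class, their partner chains, up to 4 called genes of each companion list and the 3 brightest markers of each marker list. Further genes were chosen after their values were seen. Markers of fibroblasts include Lox, also a collagen processing gene, and those of parietal endoderm Plat, also a remodelling gene. Some list symbols had no single-symbol probe set. Promoters came from RefSeq (GRCm38.p6), trimmed where they ran into the gene's own annotated span.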

Additional observations from a re-analysis of the deposited data

Results flagged for a closer look

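For Lama1 and Col18a1 the induction effect had opposite signs in every pair at 12 h and at 24 h. The share of all genes with such signs was not counted, so the pattern is not read as particular to these members. Lama1 differed by 0.50, 0.20 and 0.27 at 12 h and by -0.41, -0.16 and -0.27 at 24 h in pairs 1, 2 and 3, a change of -0.60 ± 0.195 that did not pass limma (adjusted p = 0.409). Col18a1 differed by -0.05, -0.13 and -0.11 at 12 h and by 0.03, 0.73 and 0.49 at 24 h, a change of 0.52 ± 0.264 (adjusted p = 0.919).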

How the results depend on the processing

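Nothing reversed under any alternative, among the calls of members in the 5 tested comparisons and the 6 h difference. The count of members past the threshold at 12 h (3) was 5 with the replicate block, 5 with the block within a day (chosen after seeing the data) and 8 with array weights, whose estimate did not converge. At 24 h (7) it was 4 with only the groups compared and 3 with array weights. Between the control days (0) it was 3 with the replicate block, 1 with the line as covariate, 2 with quantile normalization again, 2 without dim genes and 3 with array weights. Between the induced groups (1) it was 5 with the replicate block, 2 with the line, 0 with only the groups compared, 2 with quantile normalization, 2 with arrays centred on their median, 3 without dim genes, 2 with probe set means and 0 with array weights. Across days the replicate numbers were not shown to pair the arrays. The block there called Fn1 (adjusted p = 0.000186), Lama1 (0.0441) and Col18a1 (0.0081) between the control days, and added Col4a1, Fn1, Lama5 and Nid2 between the induced groups. The genes that array weights added at 12 h were Col4a1, Col4a5, Fn1, Lama1 and Nid2. Leaving out arrays, 1 at a time or 1 number at a time, gave 1 to 2 members at 12 h, 1 to 7 at 24 h, 0 to 1 between control days and 0 to 2 between induced groups. The change of the effect had 0 members under every setting. Of the 60 members 52 were called under no setting at 12 h, and 52 under none at 24 h. The 6 h count of 1 kept its value under the 3 alternatives run.

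All genes called at 12 h (277) numbered 441 with the replicate block, 1885 with array weights and 80 without replicate 2. At 24 h (1088) they were 1565, 467 and 392, and 669 with only the groups compared. The change of the effect (85) had 163 with the replicate block, 130 with quantile normalization and 48 with array weights. The control days (151) had 344 with the block and 1350 with weights, and the induced groups (360) had 742 with the block, 100 with only the groups compared and 89 with weights. Without replicate 2 or 3 the change of the effect had 4 and 2 genes, the control days 21 and 17, and the induced groups 21 and 53. With 3 arrays a group, the SE of a member's induction effect was 0.132 to 0.288.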
